A study of Mus musculus with 12 samples.

Results

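The genes described here are 10 genes of heart muscle, followed in vessel RNA of mice infused with angiotensin II: the sarcomere genes Myh6, Myh7, Tnnt2, Tnni3, Myl7, Myl3, Mybpc3 and Actc1, the calcium pump regulator Sln and the hormone gene Nppb. Each was taken as the array feature (transcript cluster) whose annotation holds that single gene symbol. Of the 10 genes, 9 were measured, out of 30783 named genes on the array; no transcript cluster was annotated with the single symbol Actc1, so cardiac actin was not analysed here. The genes were chosen because Myh6 and Tnnt2 were already known to be higher on the day 7 arrays. All values at day 7 are therefore a description without a test, while days 1 and 3 are tested. The label of the set as cardiac sarcomere genes holds for its members' known functions, except for Sln and Nppb, which are not sarcomere proteins.

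The 12 arrays came from male C57BL/6 mice aged 8 to 10 weeks, with 3 arrays labelled as biological replicates at each time. The treated mice carried osmotic pumps delivering angiotensin II, a peptide hormone that raises blood pressure, at 1500 ng per kg per min in Ringer's solution, and their vessels were taken after 1, 3 or 7 days. Day 0 mice had no angiotensin II, and the labels describe no pump with vehicle alone for them. The labels do not say which vessel was taken, nor where it was cut from the heart or cleaned of surrounding tissue. All values are the deposited log2 signals, on which 1 unit is a doubling. The arrays hold 5222 negative control features, and their median, between 5.91 and 6.14 on the 12 arrays, serves here as a mark for dim signals. The gap between the medians of the positive and the negative control features, a sign of RNA and labelling quality, averaged 2.59 ± 0.05 in untreated mice, and on infusion days 1, 3 and 7 it averaged 2.25 ± 0.29, 1.98 ± 0.14 and 1.76 ± 0.49 (SD, n = 3 arrays a group). Day 7 replicate 1 had the smallest gap, 1.20, against 1.98 and 2.10 on the other day 7 arrays.

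The sarcomere is the contractile unit of striated muscle, in which myosin thick filaments pull on actin thin filaments when calcium binds the troponin complex. Smooth muscle, the contractile cell of the vessel wall, has no sarcomeres and uses other myosin genes. Some of the genes here are shared with skeletal muscle, Myh7 and Myl3 with its slow fibres. Heart muscle cells belong to the heart, but in mice they also form sleeves around the veins that enter the atria, above all the pulmonary veins. Myh6 is the fast myosin heavy chain of atria and of the adult mouse ventricle, Myh7 is its slow ventricular counterpart, and Myl7 and Sln mark atrial muscle.

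The promoters of the genes with the largest and the smallest differences between day 7 and day 0 are shown, because the members moved by very unequal amounts. The sequences are RefSeq's for GRCm38.p6, 250 bases before to 50 after the annotated start, and 9 of the 10 genes had an entry. Capitals mark matches to 5 motifs searched: the M-CAT motif CATTCC, the GATA factor motif GATAA, the CArG box and the MEF2 motif on both strands, and the TATA box TATAAA on the gene's strand. Myh6 (chr14:54966558-54966857, minus strand), Tnnt2 (chr1:135836084-135836383, plus strand) and Myl7 (chr11:5898733-5899032, minus strand) had the largest differences. Myl3 (chr9:110763428-110763727, plus strand) and Mybpc3 (chr2:91117894-91118193, plus strand) had the smallest. For Tnnt2 the table lists 2 windows, of which the outermost is printed.
Myh6: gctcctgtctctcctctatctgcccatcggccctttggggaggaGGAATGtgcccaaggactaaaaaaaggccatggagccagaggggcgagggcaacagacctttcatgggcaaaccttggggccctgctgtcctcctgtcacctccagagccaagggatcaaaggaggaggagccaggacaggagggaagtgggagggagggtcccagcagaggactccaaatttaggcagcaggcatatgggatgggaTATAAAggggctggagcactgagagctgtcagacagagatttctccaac
Tnnt2: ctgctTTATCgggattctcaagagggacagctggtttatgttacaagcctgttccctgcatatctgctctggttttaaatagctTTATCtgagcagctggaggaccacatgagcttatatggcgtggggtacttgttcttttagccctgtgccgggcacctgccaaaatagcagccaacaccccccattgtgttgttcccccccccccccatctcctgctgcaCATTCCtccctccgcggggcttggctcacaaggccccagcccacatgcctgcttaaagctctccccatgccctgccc
Myl7: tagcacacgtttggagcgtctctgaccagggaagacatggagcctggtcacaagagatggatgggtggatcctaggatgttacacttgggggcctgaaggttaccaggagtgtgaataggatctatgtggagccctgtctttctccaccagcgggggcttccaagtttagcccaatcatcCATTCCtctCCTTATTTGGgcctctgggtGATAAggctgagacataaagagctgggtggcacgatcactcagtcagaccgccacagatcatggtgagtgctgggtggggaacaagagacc
Myl3: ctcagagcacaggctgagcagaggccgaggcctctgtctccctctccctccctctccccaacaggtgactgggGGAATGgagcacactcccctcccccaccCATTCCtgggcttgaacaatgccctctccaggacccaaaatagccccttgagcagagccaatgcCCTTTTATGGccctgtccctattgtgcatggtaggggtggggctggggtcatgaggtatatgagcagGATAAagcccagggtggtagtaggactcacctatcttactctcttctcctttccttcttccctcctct
Mybpc3: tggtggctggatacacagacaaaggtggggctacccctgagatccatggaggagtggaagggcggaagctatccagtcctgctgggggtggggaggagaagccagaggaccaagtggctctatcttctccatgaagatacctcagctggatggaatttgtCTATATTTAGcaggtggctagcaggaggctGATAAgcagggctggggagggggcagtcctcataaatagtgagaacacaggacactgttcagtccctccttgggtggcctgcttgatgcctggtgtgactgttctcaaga

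Each of the 3 promoters with the largest differences held 1 M-CAT match, but the Myl3 promoter held 2, and the Mybpc3 promoter held none. Among all 32851 promoters of the same length, 14.7% held an M-CAT match and 25.4% a GATA match. The CArG box, a site known for serum response factor, matched in the Myl7 and Myl3 promoters and in 1.63% of all promoters. The MEF2 motif matched in the Mybpc3 promoter and in 3.19% of all promoters. The TATAAA sequence matched in the Myh6 promoter of these 5 genes and in 8.32% of all promoters. In Myh6 it begins at offset 1 from the start used for that window, so it does not lie before that start. The window ends at 54966857, while the gene's annotated span runs to 54968017. The Myh6 window thus does not lie at the gene's outermost annotated start. The matches are a description of these windows, and none of the 5 motifs was shared by the 3 genes with large differences without also matching Myl3 or Mybpc3.

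Myh6 had the largest difference of the 9 genes at day 7. Its signals were 5.30, 5.44 and 5.21 at day 0, 5.61, 5.40 and 5.50 at day 1, 5.42, 5.65 and 5.79 at day 3, and 7.92, 7.77 and 7.96 at day 7. The 3 day 7 arrays lay close together and stood 1.98 above the highest of the other 9, while the other days overlapped. Myh6 averaged 7.88 ± 0.10 at day 7, against 5.32 ± 0.12 at day 0 (SD, n = 3 each), a difference of 2.56 ± 0.11 (SE), or 5.92-fold. At day 0 it lay below the negative control median on every array, with 32.4% to 40.1% of negative controls dimmer, whereas at day 7 between 79.9% and 81.7% were dimmer. With each day 0 array set at its negative control median instead, the day 7 signal was 3.72-fold higher, so the size of the difference depends on a day 0 level that the array hardly resolves. In RNA of whole tissue, more cells of a type and more of the transcript per cell cannot be told apart. At day 1 Myh6 differed from day 0 by 0.19 ± 0.11 (SE, limma adjusted p = 0.484) and at day 3 by 0.30 ± 0.11 (SE, limma adjusted p = 0.109), and neither passed the threshold of 0.05.

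**Figure D1:**
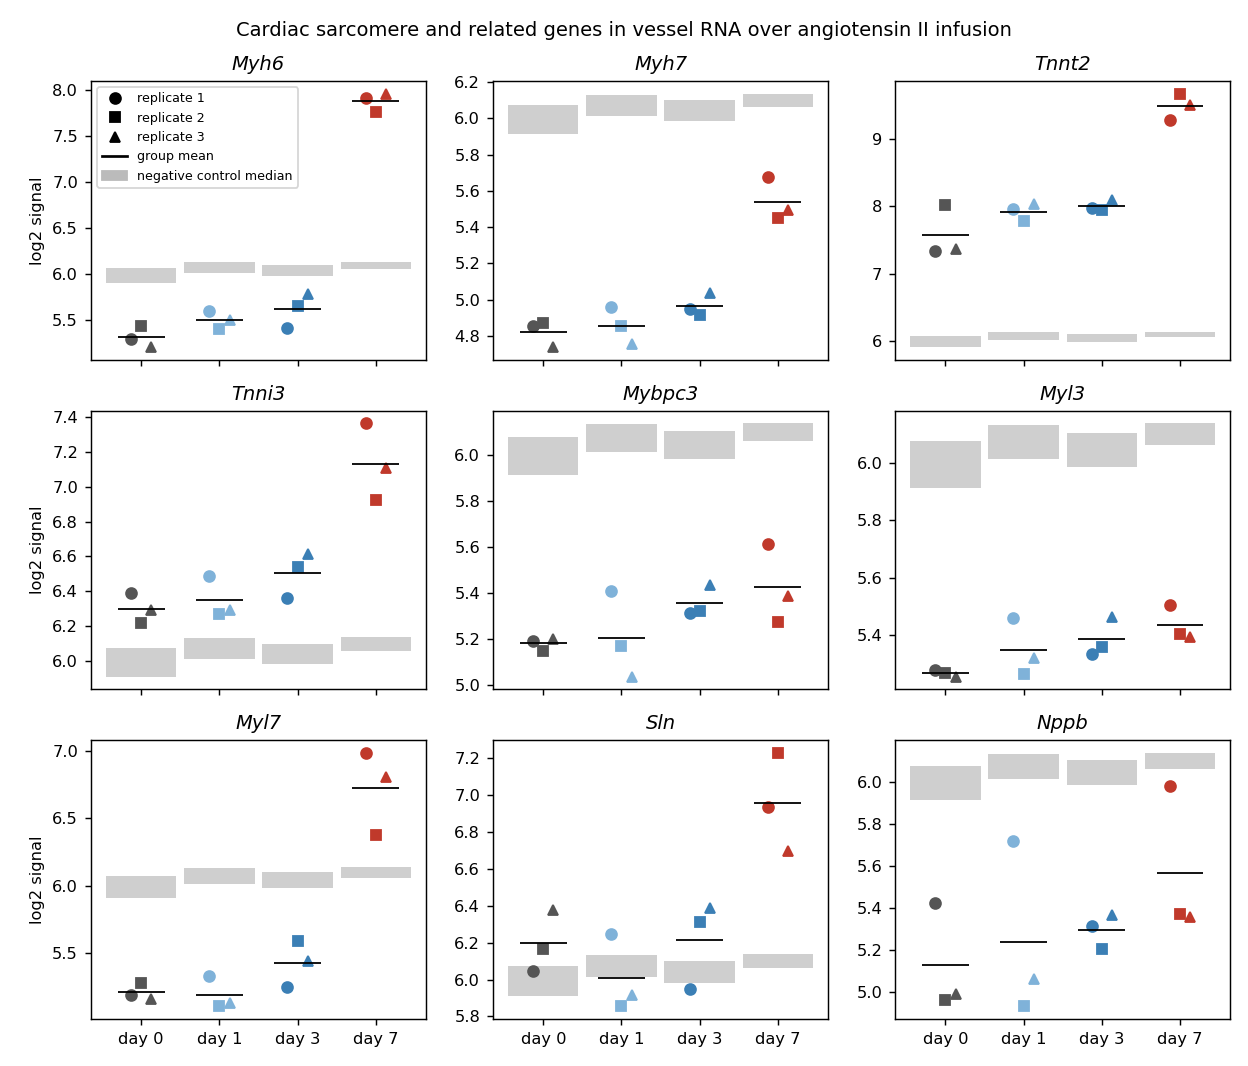
Log2 signal of the 9 measured genes on each of the 12 arrays, 1 panel a gene with its own vertical scale, against the day of angiotensin II infusion (day 0, untreated). Points are arrays; Myh6 and Tnnt2 at day 7 lie at 7.77 to 7.96 and 9.28 to 9.67, above every other array, while Mybpc3, Myl3 and Nppb overlap with earlier days.

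Myh7 stayed dim throughout. Its signals were 4.85, 4.87 and 4.74 at day 0, 4.96, 4.85 and 4.76 at day 1, 4.95, 4.91 and 5.04 at day 3, and 5.68, 5.45 and 5.50 at day 7. The day 7 arrays stood 0.41 above the rest, yet the gene was below the negative control median on all 12 arrays. The day 7 difference from day 0 was 0.72, or 1.65-fold, and Myh7 passed the filter on low values only through its 3 day 7 arrays. Differences from day 0 were 0.04 at day 1 (limma adjusted p = 0.953) and 0.15 at day 3 (limma adjusted p = 0.281). Myh6 and Myh7 are neighbouring genes of very similar sequence, and no source used here says how far the array's probes separate them, so the small Myh7 difference is uncertain.

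Tnnt2, the cardiac troponin T that ties the troponin complex to tropomyosin, was the brightest of the 9 genes and lay above the negative control median on all 12 arrays. It read 7.34, 8.01 and 7.37 at day 0, 7.95, 7.78 and 8.03 at day 1, 7.97, 7.94 and 8.10 at day 3, and 9.28, 9.67 and 9.50 at day 7. The day 7 arrays stood 1.19 above all others, and day 0 replicate 2 lay within the range of days 1 and 3. The gene averaged 9.49 ± 0.19 at day 7, against 7.57 ± 0.38 at day 0 (SD, n = 3 each), a difference of 1.91 ± 0.18 (SE), or 3.76-fold. At day 1 the difference from day 0 was 0.35 ± 0.18 (SE, limma adjusted p = 0.388), and at day 3 it was 0.43 ± 0.18 (SE, limma adjusted p = 0.148). The day 3 value rests on day 0 replicate 2: without it the day 3 difference was 0.65 with a limma adjusted p of 0.0288. Without day 3 replicate 1, Myh6 at day 3 gave 0.40 with a limma adjusted p of 0.0499. Over all alternatives these day 3 adjusted p-values ran between 0.0499 and 0.590 for Myh6 and between 0.0288 and 0.605 for Tnnt2.

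Tnni3, the cardiac inhibitory troponin I, read 6.39, 6.22 and 6.29 at day 0, 6.49, 6.27 and 6.29 at day 1, 6.36, 6.54 and 6.62 at day 3, and 7.36, 6.92 and 7.11 at day 7. All 3 day 7 arrays were above the other 9, by a gap of 0.31. The day 7 difference from day 0 was 0.83 ± 0.12 (SE), or 1.78-fold. Mybpc3, the cardiac myosin-binding protein C of the thick filament, read 5.19, 5.15 and 5.20 at day 0, 5.41, 5.17 and 5.04 at day 1, 5.31, 5.32 and 5.44 at day 3, and 5.61, 5.28 and 5.39 at day 7. Its day 7 arrays were mixed with those of days 1 and 3, and all 12 arrays were below the negative control median. Its day 7 difference from day 0 was 0.24 ± 0.11 (SE), close to the median of 0.25 over the 7682 tested genes of similar brightness.

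Of the atrial genes, Myl7, the atrial regulatory light chain of myosin, read 5.19, 5.28 and 5.16 at day 0, 5.33, 5.11 and 5.13 at day 1, 5.25, 5.59 and 5.44 at day 3, and 6.98, 6.38 and 6.81 at day 7. Its day 7 arrays stood 0.79 above the others and above the negative control median, while all 9 earlier arrays were below it. The day 7 difference from day 0 was 1.51 ± 0.15 (SE), or 2.85-fold, and 1.66-fold with day 0 set at the negative control median. Sln, sarcolipin, which slows the calcium pump of atrial and of some skeletal muscle, read 6.05, 6.17 and 6.38 at day 0, 6.25, 5.86 and 5.92 at day 1, 5.95, 6.31 and 6.39 at day 3, and 6.94, 7.23 and 6.70 at day 7. The 3 day 7 arrays were the highest, by a gap of 0.31. The day 7 difference from day 0 was 0.76 ± 0.17 (SE), or 1.69-fold.

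Myl3, the ventricular essential light chain of myosin, which slow skeletal muscle also uses, had a far smaller day 7 difference than Myl7. It read 5.28, 5.27 and 5.26 at day 0, 5.46, 5.27 and 5.32 at day 1, 5.33, 5.36 and 5.46 at day 3, and 5.51, 5.41 and 5.40 at day 7. The day 7 arrays were above day 0 but not above days 1 and 3, and the day 7 difference from day 0 was 0.17 ± 0.07 (SE). That is below the median of 0.25 over tested genes of similar brightness. Myl3 lay below the negative control median on all 12 arrays, so a small difference is hardly resolved. Nppb, which encodes the natriuretic peptide that stretched heart muscle releases, read 5.42, 4.96 and 4.99 at day 0, 5.72, 4.93 and 5.06 at day 1, 5.32, 5.20 and 5.37 at day 3, and 5.98, 5.37 and 5.35 at day 7. Its day 7 arrays overlapped with day 0, where replicate 1 was high, and replicate 1 was also the highest array at days 1 and 7. Its day 7 difference from day 0 was 0.44 ± 0.24 (SE), and all 12 arrays were below the negative control median.

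At day 1, none of the 9 genes passed limma's test against day 0 at an adjusted p of 0.05, with 3.61% of the 22110 tested genes called, and none had an unadjusted p under 0.05, as 16.4% of tested genes did. No gene had all 3 day 1 arrays above all 3 day 0 arrays, against 11.8% of tested genes. The median difference of the 9 genes was 0.05, beside 0.01 over all tested genes. At day 3, again none of the 9 passed limma's test, with 11.7% of tested genes called; Myh6 and Tnnt2 had an unadjusted p under 0.05, as 28.2% of tested genes did. Myh7, Mybpc3 and Myl3 had all 3 day 3 arrays above day 0, which is 3 of 9, where 23.3% of tested genes did so. The median at day 3 was 0.18, beside 0.08 over all tested genes. The day 3 differences ran between 0.02 for Sln and 0.43 for Tnnt2, and the remaining adjusted p-values from limma at days 1 and 3 lay between 0.289 and 1.000.

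At day 7, 8 of the 9 genes had all 3 arrays above day 0, Nppb being the exception, where 26.6% of tested genes did so. In limma's test, 25.2% of all tested genes were called at day 7. Because the genes were chosen for this difference, they are given no test and nothing is read from the count. Myh6, Myh7, Tnnt2, Tnni3, Myl7 and Sln had their 3 day 7 arrays above all 9 earlier arrays, beside 3.49% of tested genes. The median day 7 difference from day 0 was 0.76 for the 9 genes and 0.09 for all tested genes. Sorted by that difference among the 22110 tested genes, Myh6 stood at place 130, Tnnt2 at 397 and Myl7 at 698, while Nppb, Mybpc3 and Myl3 stood at 5330, 8272 and 9651. Against day 3, the day 7 differences were 2.26 for Myh6, 1.48 for Tnnt2, 1.29 for Myl7 and 0.74 for Sln, and only 0.07 for Mybpc3 and 0.05 for Myl3. The same 6 genes that stood above all earlier arrays were those with all 3 day 7 arrays above day 3, beside 7.04% of tested genes. Both comparisons share the day 7 arrays.

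The day 7 arrays did not order the genes alike. Replicate 1 was the highest of all 12 arrays for Myh7, Tnni3, Mybpc3, Myl3, Myl7 and Nppb, yet it was the lowest day 7 array for Tnnt2, and Myh6 was highest on replicate 3 and Sln on replicate 2. Replicate 1 is also the array with the smallest control gap. Without it, the day 7 differences from day 0 were 2.55 for Myh6, 2.01 for Tnnt2, 1.38 for Myl7, 0.77 for Sln, 0.71 for Tnni3 and 0.65 for Myh7. Those of the dim genes were 0.24 for Nppb, 0.15 for Mybpc3 and 0.13 for Myl3, and the Nppb and Mybpc3 values moved by over 1.5 times. The sign of the difference for Mybpc3 and Myl3 also turned with another scaling: it was -0.041 and -0.12 after quantile normalization. Under all 11 alternatives of processing and with any one array left out, Myh6 stayed between 2.29 and 2.69 and Tnnt2 between 1.64 and 2.14.

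**Figure D2:**
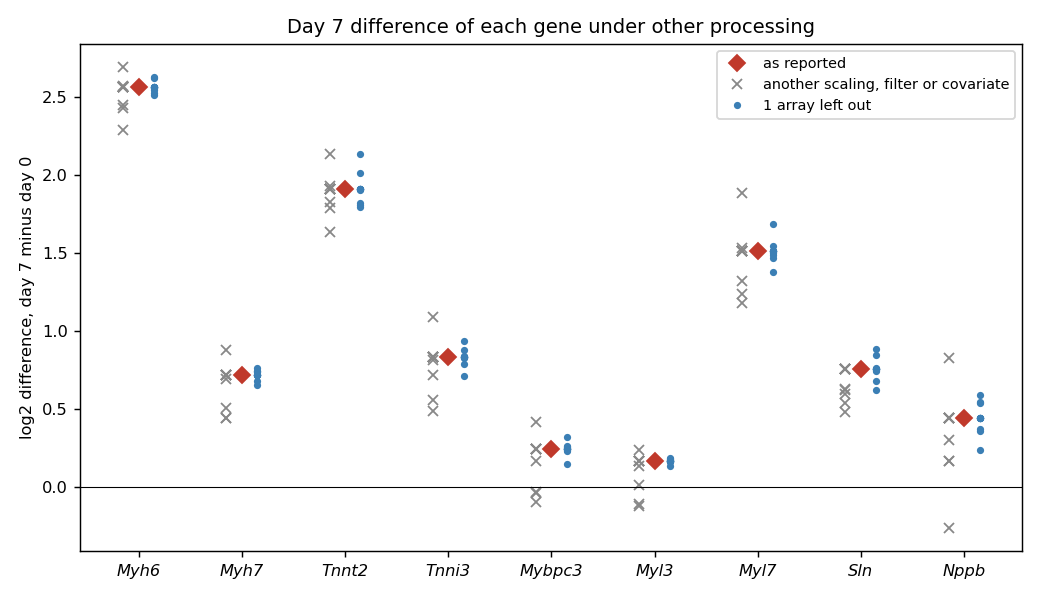
Day 7 minus day 0 (log2) of the 9 genes under the values as deposited and each alternative of processing or left-out array. Myh6, Tnnt2 and Myl7 stay above 1 under all of them, whereas Mybpc3, Myl3 and Nppb cross 0.

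Ventricular and atrial genes were set side by side at day 7. Of the atrial members, Myl7 differed from day 0 by 1.51 and Sln by 0.76. Of the ventricular members, Myh7 differed by 0.72 and Myl3 by 0.17, and both lay below the negative control median on all 12 arrays. The atrial genes were thus not uniformly above the ventricular ones, since Sln and Myh7 differ by less than their standard errors, and no test was made between the classes because the day 7 values chose the genes. Outside the members, 7 atrial genes were measured and 2 passed the filter on low values. Both of these rose at day 7: Myl4, the atrial essential light chain, by 0.58 (limma adjusted p = 0.0108), and Kcna5, an atrial potassium channel also found in vessel smooth muscle, by 0.32 (limma adjusted p = 0.0447, but 0.0553 with no filter), with 12.1% of all tested genes called as higher. With the gap between control features as a covariate, neither passed (limma adjusted p = 0.342 for Myl4 and 0.471 for Kcna5). The list was made with earlier results of these data known, which limits what these p-values can say. The 5 untested atrial genes were higher in mean by between 0.37 and 0.62, with a median of 0.41, beside a median of 0.21 over the 7914 named genes with a mean signal under 5. Nppa, the atrial natriuretic peptide and among the most abundant transcripts of atrial muscle, read 5.51, 4.56 and 4.90 at day 7, against 4.69, 4.32 and 4.58 at day 0, and lay below the negative control median on all 12 arrays.

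The ventricular genes that are not members were all too dim to be tested. Myl2, the ventricular regulatory light chain, read 4.98, 4.54 and 4.57 at day 7, against 4.77, 4.52 and 4.51 at day 0, so its groups overlapped. Irx4, a ventricular transcription factor, differed by 0.03 and Mylk3, the kinase of cardiac myosin light chain, by 0.36. Nkx2-5, a transcription factor that defines heart muscle in all chambers, differed by 0.01. Myl2, Nppa, Nkx2-5, Gata4 and Irx4 were below the negative control median on all 12 arrays, and Myl4 was above it on 2.

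**Figure D3:**
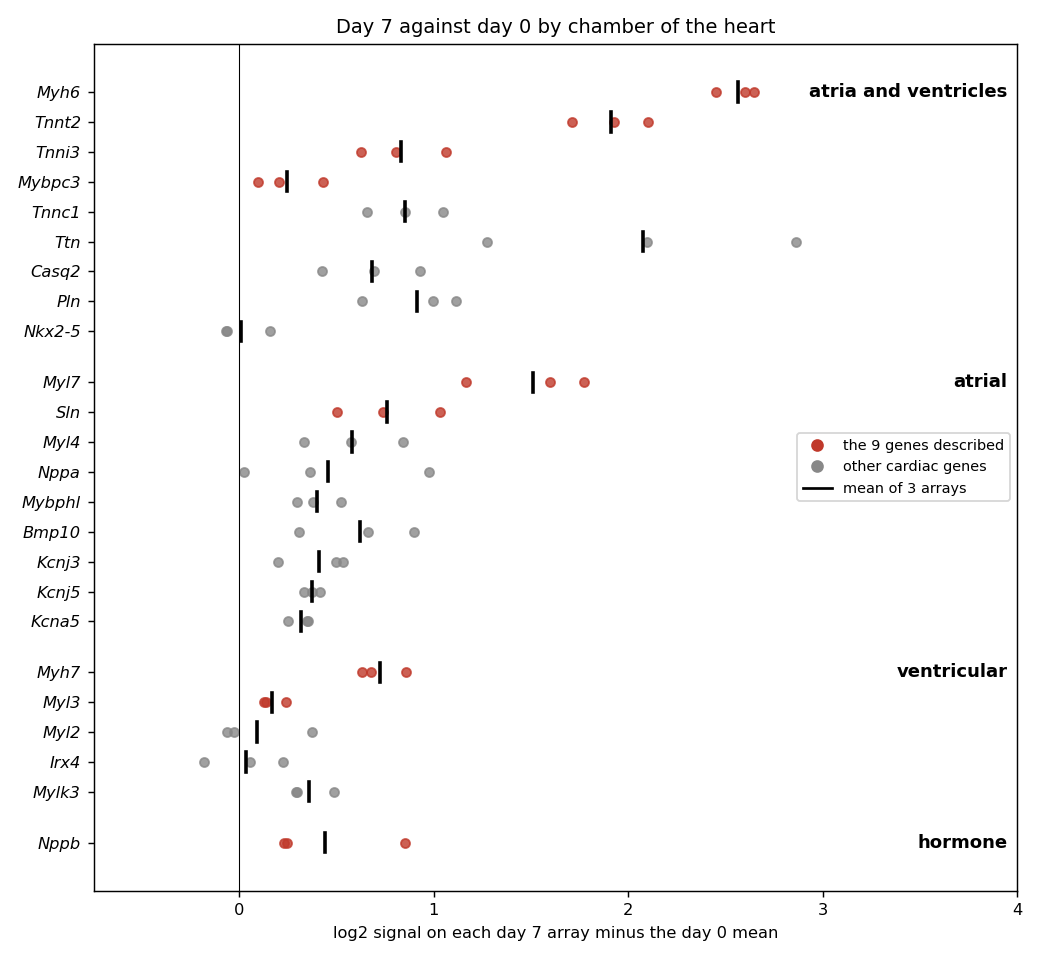
Log2 signal on each of the 3 day 7 arrays minus the day 0 mean, for cardiac genes grouped by the chambers that use them. Red points are the genes described, grey points are other cardiac genes, and black bars are means; Myl7 lies at 1.51 and Myl2 at 0.09.

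The wider cardiac lists moved in both directions. Of 52 other cardiac genes, 50 were measured and 34 passed the filter. At day 1, none rose in limma's test and 3 fell, with 1.98% of tested genes called higher and 1.63% lower. By limma at an unadjusted p under 0.05, 0 were higher and 13 lower, beside 16.4% of tested genes in either direction. At day 3, none rose and 10 fell, with 4.6% called higher and 7.11% lower. Unadjusted, 2 were then higher and 15 lower, beside 28.2% of tested genes in either direction. At day 7, 12 rose and 12 fell, with 12.1% called higher and 13.1% lower. Of the 12 that rose, 6 reached the filter on low values only with the help of the day 7 arrays, Ttn, Csrp3, Xirp2, Casq2, Corin and Cox6a2, so their entry into the test depended on the rise itself, whereas this held for none of the 12 that fell. With no filter, 19 of the 50 measured genes rose and 12 fell, beside 2702 and 2621 of all 30783 named genes. With the gap between control features as a covariate, only Ttn, Trdn and Tcap passed, 2 higher and 1 lower. Of all 22110 tested genes, 487 were then higher and 285 lower. None of the 34 passed limma's test for day 7 against day 3, where 0.267% of tested genes were called. By limma at an unadjusted p under 0.05, 15 were higher and 3 lower, beside 12.9% of all tested genes in either direction. The split at day 7 depends on the scaling, with 5 higher and 14 lower of 32 tested after quantile normalization. Of all 21878 genes tested then, 1256 were higher and 4190 lower. The difference of all tested genes itself moves with the scaling, with a median of 0.09 as deposited, -0.11 after quantile normalization and -0.19 after centring each array on its median.

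The genes that rose were mostly dimmer at day 0, at 4.69 to 7.23, than the genes that fell, at 6.38 to 14.72. A trend in the same direction ran through all tested genes, but these were sorted by their mean over the 12 arrays and not by day 0. The day 0 level enters the difference itself, so the sortings are not the same measure. The median day 7 difference of all tested genes was 0.25 at mean levels of 5 to 6, -0.26 at 8 to 10 and -0.36 at 10 to 12. It was 0.00 at 12 and above. The 12 that rose had a median day 0 level of 5.33, and 10 of them were below the negative control median on every day 0 array, whereas the 12 that fell had a median day 0 level of 9.53 and none was. Ttn, the giant elastic protein of the sarcomere in both heart and skeletal muscle, read 6.33, 7.92 and 7.15 at day 7, against 4.87, 4.88 and 5.41 at day 0, and rose by 2.08 (limma adjusted p = 0.00436 with no filter). Among the troponin and calcium handling genes, Trdn, triadin of the calcium release complex, rose by 1.05 (limma adjusted p = 0.00246), Pln, the inhibitor of the cardiac calcium pump, by 0.91 (limma adjusted p = 0.0111), Tnnc1, the calcium-binding troponin C of heart and slow muscle, by 0.85 (limma adjusted p = 0.00715), and Casq2, the calcium store protein of heart muscle, by 0.68 (limma adjusted p = 0.0127 with no filter). Cox6a2, a muscle and heart subunit of cytochrome oxidase, rose by 0.98 (limma adjusted p = 0.0109 with no filter).

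The genes that fell include several that vessel smooth muscle, fat or skeletal muscle also use. Myom1, a structural protein of the sarcomere's middle line, read 9.93, 7.93 and 12.54 at day 7, against 14.99, 13.94 and 15.23 at day 0, and fell by 4.58 (limma adjusted p = 0.0255). Nexn, an actin-binding protein of heart and smooth muscle, fell by 3.34 (limma adjusted p = 0.00569), and Atp2a2, the calcium pump of heart and smooth muscle, by 1.93 (limma adjusted p = 0.00468). Tcap, the cap protein that anchors titin, fell by 2.53 already at day 1 (limma adjusted p = 0.000913), and at day 7 it fell by 2.03 (limma adjusted p = 0.000565). Actn2, the sarcomeric actinin, differed by -0.91 at day 7 (limma adjusted p = 0.0839), and Ryr2, the cardiac calcium release channel, by -0.56 (limma adjusted p = 0.201).

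Markers of other cell types moved on the same arrays. Of all tested genes, 12.1% were called higher and 13.1% lower at day 7, with 4.6% called higher at day 3. Of the macrophage genes, 7 of 8 rose at day 7, with a median difference of 1.40, and 8 had risen at day 3. Of the fibroblast genes, 3 of 7 rose at day 7, with a median difference of 1.77. Of the smooth muscle contractile genes, 14 of 15 fell at day 7, among them Myh11, the smooth muscle myosin heavy chain, which fell by 6.40 (limma adjusted p = 0.00453). The list's mean level was 8.27 to 10.48 at day 7 and 13.24 to 13.45 at day 0. Of the skeletal muscle genes, 13 of 20 were tested, and 7 rose and 1 fell at day 7. Of these 7, 3 reached the filter on low values only with the help of the day 7 arrays, Myh4 among them. Their entry into the test thus depended on the rise itself. Myh4, the fastest skeletal myosin heavy chain, read 5.46, 6.34 and 6.20 at day 7, against 4.93, 4.90 and 5.44 at day 0. Its difference in mean was 0.91, while the skeletal actin Acta1 differed by 0.16 (limma adjusted p = 0.701). The skeletal list's mean level was 5.63, 6.14 and 6.02 on the day 7 arrays and between 5.46 and 5.66 at day 0. Day 7 replicate 1 thus lay within the day 0 range of the skeletal list's mean while its Myh6 signal was 7.92. That mean includes Casq1, which read 6.09 on this array, against 8.45, 8.60 and 8.39 at day 0, and so lowers it. A mean without Casq1 was not taken, so the place of this array within the day 0 range may rest on that gene. Among the day 7 arrays, Ttn, Trdn and Tnnt2 were lowest on replicate 1 and highest on replicate 2, the order of the skeletal list, whereas Myh6 and Myl7 were lowest on replicate 2. With the skeletal list's mean as a covariate, the day 7 difference was 2.69 for Myh6, 1.89 for Myl7 and 1.79 for Tnnt2. Of the other cardiac genes, 9 rose and 4 fell, in place of 12 and 12. Among all 22110 tested genes, 1475 were then called higher and 2445 lower. The 9 were 8 of the earlier 12 and Hrc, and the 4 were all among the earlier 12. Ttn, which skeletal muscle shares, differed by 1.04 under that covariate and Trdn by 0.70, both less than without it. Pln at 1.05 and Casq2 at 0.94 differed by more than without it.

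**Figure D4:**
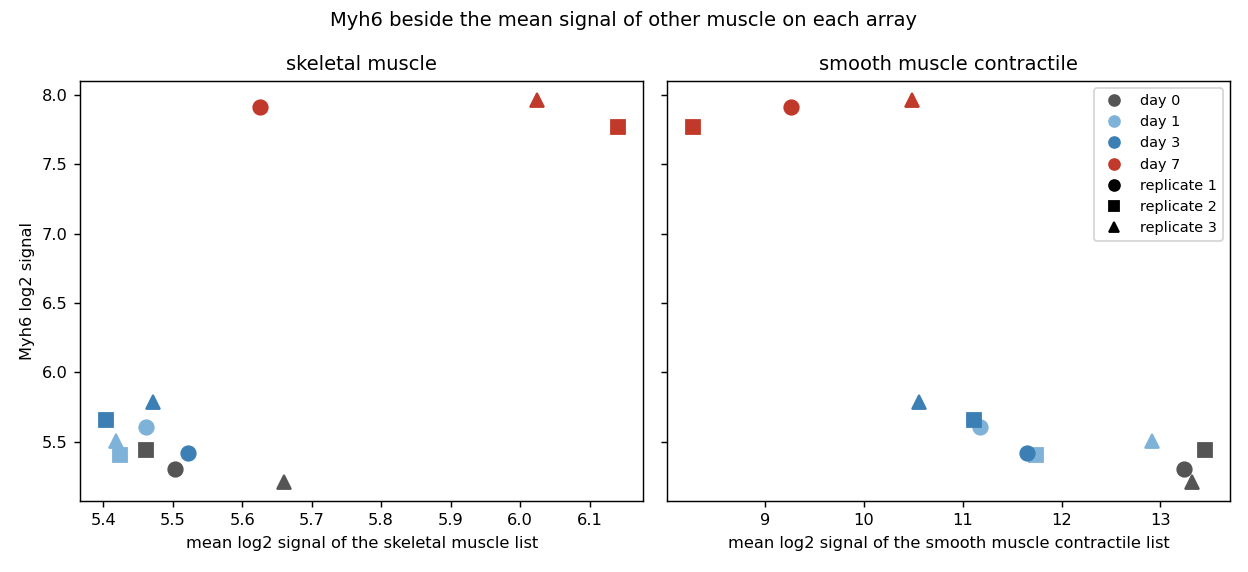
Myh6 signal of each array against the mean signal of the skeletal muscle list (left) and of the smooth muscle contractile list (right), with colours for days and symbols for replicates. The 3 day 7 arrays keep Myh6 between 7.77 and 7.96 while the skeletal list's mean ranges between 5.63 and 6.14. That mean includes Casq1, which read 6.09 on day 7 replicate 1 and 8.39 to 8.60 at day 0.

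The brown fat list, which shares mitochondrial genes with muscle, had a mean level of 7.65, 6.59 and 7.36 on the day 7 arrays, against 7.88, 7.86 and 7.61 at day 0, with Ucp1, the heat-producing protein of brown fat, at 11.07, 5.83 and 8.22 at day 7. None of the 3 of 5 lung epithelium genes and 2 of 4 mesothelium genes that could be tested passed limma's test at any day, and Sftpc, which defines lung epithelium, and Msln, which defines mesothelium, were below the negative control median on all 12 arrays. The part of these other tissues in the cardiac signals was not tested beyond the covariate values given.

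Tested genes outside the set were ranked by Pearson's r with Myh6 over the 12 arrays. Symbols of predicted or clone-like genes, small RNAs and some other classes were passed over. Among the genes left, those most like Myh6 were Aspn at 0.975, Angptl1 at 0.972, Slamf7 at 0.951, Fap at 0.950, Itgax at 0.948, C1qtnf3 at 0.944, Mpeg1 at 0.943 and Dpp4 at 0.942. For Tnnt2 they were Slc22a4 at 0.952, Pisd at 0.951, Thbs4 at 0.948, Asap3 at 0.946, Mpeg1 at 0.941, Aspn at 0.937, Itgax at 0.936 and Xirp2 at 0.936. Aspn and Fap are genes of matrix-producing fibroblasts and Itgax and Mpeg1 of macrophages and related cells, and Xirp2 was the only one of these genes on a cardiac list. The arrays share the day 7 step, so a high r marks any gene with that step. Between members, Myh6 and Myl7 correlated at 0.978 over the 12 arrays and at 0.68 in deviations from the day means, and Myh6 and Tnnt2 at 0.967 and 0.38.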

How the data were processed

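The authors deposited log2 signals of 12 single-colour arrays, made with a tool that the submitters' processing notes name as Affymetrix Expression Console, without a version. The labels name a different Affymetrix mouse array: the value table's identifiers are transcript clusters of another design, named here through the platform annotation. Of 65956 transcript clusters, 31258 carried 1 symbol, 1492 several and 33206 none. The deposited log2 values were used without further normalization, and 581 features sat at the upper limit of 19.93 on every array. Per gene, the cluster with the highest mean was kept, and genes reaching the 40th percentile of all clusters (5.25) on at least 3 of 12 arrays were tested, 22110 in all. All 9 measured members passed, Myh7 only through its 3 day 7 arrays.

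Days were compared with limma 3.58.1 in R 4.3.3 (lmFit and eBayes, 1 mean per group over all 12 arrays), with Benjamini-Hochberg adjustment over all tested genes. The fit was tested on simulated data with 200 changed genes. It recovered 62%, 58% and 55% of differences of 1 unit at days 1, 3 and 7 against day 0. Of differences of 2 units it recovered 92%, 92% and 93%, with 12, 8 and 6 false calls. A gene that did not pass may therefore still differ by 1 unit. Arrays carry no depth, and their number limits the precision. The members and lists were chosen with earlier results of these data known. Named were all members, 11 fixed cardiac genes, up to 4 more of each cardiac list and up to 3 of each marker list with the largest day 7 change, the defining markers, and the 8 genes most like Myh6 and Tnnt2. For this likeness, symbols of predicted or clone-like genes and the like were passed over. Chamber markers outside this rule were chosen after their values were seen. Alternatives were other scalings, filters and cluster rules, covariates, a replicate block, limma's trend with robust estimation, the 6 arrays compared alone, and leaving out each array.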

Additional observations from a re-analysis of the deposited data

How the results depend on the processing

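Genes called at day 1 numbered 798 as deposited, 436 after quantile normalization, 439 after centring each array, 0 with the fat lists as a covariate (1905 by limma at an unadjusted p under 0.05) and 209 with only the 6 arrays compared. At day 3, 2588 were called, against 462 with the control gap as a covariate, 33 with the fat covariate and 4522 with 6 arrays. At day 7, 5578 were called, against 772, 2065 and 2720 under the same 3 settings. For day 7 against day 3, 59 were called, against 115 after quantile normalization, 379, 1 and 38 with the control, skeletal and fat covariates, and 1 with 6 arrays. Leaving out single arrays gave 101 to 1104, 702 to 3498, 2832 to 7481 and 10 to 273.

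Other cardiac genes called at day 1 numbered 3, against 1 after quantile normalization or centring, 0 with the fat covariate, 1 with 6 arrays and 5 with the replicate block. At day 3, 10 became 1 with the control or the fat covariate. At day 7, 24 became 3 with the control covariate and 13 with the skeletal one. For day 7 against day 3, 0 became 1 with the stricter filter or the variance trend and 3 with the control covariate. Leaving out single arrays gave 1 to 6, 3 to 13, 18 to 24 and 0 to 2, and for the members 0 to 0 at day 1 and 0 to 1 at day 3. The share of calls that were higher was 47.9% at day 7 as deposited, 23.1% after quantile normalization and 20.6% after centring. It was 54.9%, 61.9% and 66.3% at day 1, 39.3%, 29.9% and 23.0% at day 3, and 42.4%, 31.3% and 30.3% for day 7 against day 3.

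At day 7 against day 0, Mybpc3 turned to -0.041 after quantile normalization, -0.031 after centring and -0.10 with the control covariate, Myl3 to -0.12 and -0.11 under these scalings, and Nppb to -0.26 with the control covariate. Against day 3, Mybpc3 turned to -0.030, -0.024 and -0.023 under those 3 settings, and Myl3 to -0.052 and -0.042 under the scalings. With single arrays left out, Mybpc3 against day 3 ranged between -0.026 (without day 7 replicate 1) and 0.143 (without day 7 replicate 2). Of 406 member differences at days 1 and 3 under an alternative, 42 changed sign without passing and 2 passed. The causes were not tested. Replicate numbers were not taken to pair the arrays, since the labels give them no shared animal or day and deviations of same-numbered arrays correlated between -0.506 and 0.662 (median 0.04, against -0.01 for other numbers); 7 of 12 arrays matched their own number best, with 3 of 9 possible partners sharing it. The replicate block moved the counts to 819, 2794, 5778 and 78. Dim signals near the negative controls limit the sizes given for Myh6, Myh7, Myl7, Myl3, Mybpc3 and Nppb.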
